A study of Mus musculus with 6 samples.

Results

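Potassium and sodium channel genes were compared between undifferentiated mouse embryonic stem (ES) cells and Pax7-GFP cells obtained from ES cells by myogenic differentiation. The genes were taken by symbol alone, as those of the Kcn families and of the voltage-gated Scn family, and not by their signals. The choice of these families was made with earlier results of these data known. The channel genes numbered 97 of the 22180 genes measured, 86 for potassium and 11 for sodium channels, and were represented by 104 probe sets. The ES group held 3 samples of pluripotent cells. The Pax7-GFP group held 3 samples of cells sorted by flow cytometry for a green fluorescent reporter of Pax7, the transcription factor of muscle progenitors, after 3 weeks in a myogenic protocol. The gate of a reporter line was placed with undifferentiated cells of that line as baseline, per the labels' protocols. The genotype of the lines, the construction of the reporter, whether ES cells were sorted, and whether the ES samples came from the Pax7 reporter line are not given in the labels. Total RNA of each sample was labelled with a double amplification and hybridised to 1 single-colour array, and values are log2 signals. The comparison addresses which channel genes separate sorted myogenic cells from the pluripotent state.

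Potassium channels let potassium leave the cell and hold or restore a negative membrane potential, and voltage-gated sodium channels carry the inward current that starts an action potential. A channel is built from pore-forming (alpha) subunits, often with auxiliary subunits that set its gating or its place in the membrane. In the skeletal muscle lineage the membrane potential of myoblasts becomes more negative before fusion, through potassium channels, and mature fibres fire sodium-dependent action potentials.

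The 2 groups matched their labels. All 8 pluripotency markers were lower in Pax7-GFP cells, with Nanog at a log2 fold change of -6.89, and 7 of 8 myogenic progenitor markers were higher, with Pax7 at a log2 fold change of 5.20. The sort selects for Pax7. Differentiated muscle markers were higher in 7 of 8, and their mean log2 signal went from between 5.53 and 5.72 on the ES arrays to between 8.17 and 8.79 on the Pax7-GFP arrays. Array medians lay between 5.61 and 5.69, no pair of arrays was identical, and arrays correlated at 0.987 or more within groups and at 0.895 to 0.905 between them, across genes, which are not independent replicates. The RNA of each array came from many cells together, so a lower signal from fewer cells of a type and one from less RNA per cell cannot be told apart.

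Of the 97 channel genes 5 were called, each with a difference of at least 2-fold, and 92 were not. Scn3b, Kcnn3 and Kcnma1 were higher in Pax7-GFP cells, and Kcnk5 and Kcnk1 were lower. A gene was called when limma's p, adjusted over all genes (Benjamini-Hochberg), was under 0.05 and the absolute log2 fold change was at least 1. The 5 called genes are 5.15% of the 97, whereas 14.5% of all genes were called. The calls split into 3 higher and 2 lower, against 7.34% and 7.15% of all genes. The median log2 fold change was 0.016 over the channel genes and 0.024 over all genes, and the median absolute value was 0.14 against 0.23. Of the channel genes, 87.6% lay within 0.5 of no change, compared with 69.4% of all genes.

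**Figure D1:**
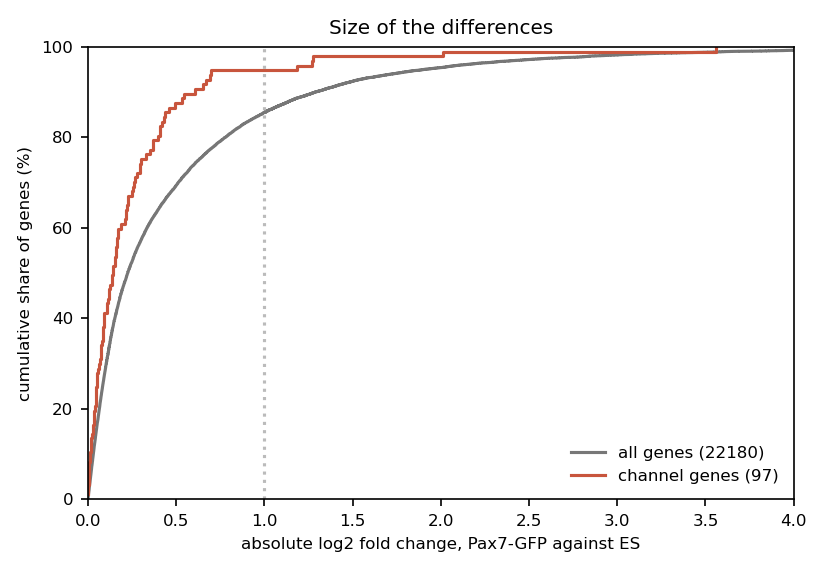
Cumulative share of genes (y axis, percent) by the absolute log2 fold change between Pax7-GFP and ES cells (x axis, dotted line at 1), for the 97 channel genes in red and all 22180 genes in grey. The red line stands above the grey one over most of the range, as 87.6% against 69.4% lie under 0.5, and its last step, at 3.56, is Scn3b. Genes beyond 4 on the x axis are not drawn.

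Many channel genes had low signals, which sets a limit on these shares. Only 23 of the 97 had a mean above the median of all gene means, 6.12, and all 5 called genes were among them. The called share above that median was 21.7% of the channel genes and 24.7% of all genes. A gene can pass it through the group where it is high, as Kcnn3 and Kcnk5 did, whereas 3 of the 5 called genes lay above 6.12 in both groups. The share is therefore a description, with no comparison drawn from it. The other 74 included no called gene. The values come without detection calls, and log2 signals near background compress fold changes, so a gene with a low signal in both groups cannot be said to be absent or unchanged.

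Scn3b showed the largest difference of all channel genes. It encodes an auxiliary beta subunit of voltage-gated sodium channels, a membrane protein with an immunoglobulin-like domain that modulates the gating and surface level of the alpha subunits and is best known from neurons and heart. Its probe set, 17516332, read 6.75, 6.76 and 6.44 on the 3 ES arrays and 10.23, 9.94 and 10.46 on the Pax7-GFP arrays. All 3 Pax7-GFP values thus lay above all ES values, with a gap far wider than the spread within either group. The mean rose from 6.65 ± 0.18 to 10.21 ± 0.26 (SD, n = 3 each), which is 11.8-fold, or 3.56 on the log2 scale with an SE of 0.15 (limma, adjusted p = 5.40e-07). The other beta subunits measured, Scn2b and Scn4b, stood at 0.16 and 0.088 and passed neither threshold.

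Markers of neurons, in which Scn3b is also used, did not move in 1 direction. Of 10 neuronal markers 2 were higher, Dcx at 1.51 and Map2 at 1.46, and 2 were lower, Stmn2 at -5.51 and Tubb3 at -4.30, and the other 6 passed neither threshold. The mean log2 signal of the list was 6.5 to 6.55 on the ES arrays and 5.85 to 5.97 on the Pax7-GFP arrays. That mean includes the large falls of Stmn2 and Tubb3, and the median log2 fold change of the list was 0.129. Of 8 cardiac markers 3 were lower and 0 higher by limma. At an unadjusted p under 0.05 there were 4, these 3 and Tbx5, which lay on the higher side at 0.26. The mean signal of that list was 6.31 to 6.38 in ES and 5.67 to 5.79 in Pax7-GFP arrays. Among 6 glial and neural crest markers 1 was higher and 1 lower, and 2 more passed the adjusted p threshold alone, both on the higher side. The mean signal of these markers was 6.46 to 6.5 in ES and 6.66 to 6.81 in Pax7-GFP arrays. The part of such cells in the signal of Scn3b was not tested.

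Both other rises were pore subunits of calcium-activated potassium channels. Kcnn3 encodes a small-conductance channel that opens on calcium bound to calmodulin, and it is known from immature and denervated muscle. Its signals were 5.88, 5.57 and 5.82 on the ES arrays and 7.06, 6.57 and 7.44 on the Pax7-GFP arrays. The groups did not overlap, and the Pax7-GFP arrays spread more widely than the ES arrays. From 5.76 ± 0.16 to 7.03 ± 0.43 (SD, n = 3 each) the log2 fold change was 1.27 (SE 0.20, limma adjusted p = 0.00112), with a 95% interval of 0.80 to 1.74. The interval includes 1, so a difference of somewhat less than 2-fold is within the error.

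Kcnma1 encodes the pore of the large-conductance channel that opens with both calcium and depolarisation. It was measured by 2 probe sets that agree in direction and differ in size. The brighter one, 17548705, read 7.30, 7.60 and 7.48 on the ES arrays and 8.56, 8.44 and 8.95 on the Pax7-GFP arrays, without overlap. The difference was 1.19 (SE 0.14, limma adjusted p = 0.000240), with an interval of 0.85 to 1.52. The dimmer one, 17304012, read 4.54, 4.54 and 5.01 against 7.45, 7.14 and 7.43, which gives 2.64 on the log2 scale (SE 0.15, limma adjusted p = 3.01e-06 among all single-symbol probe sets). With the mean of both the gene stood at 1.91. Which transcripts each probe set covers is not given in the sources used here. Of 6 smooth muscle markers, a cell type in which this channel is also known, 3 were higher, Des at 4.46, Acta2 at 1.53 and Tagln at 1.49. Cnn1 was lower, at -2.18, Smtn passed the p threshold alone at 0.96, and Myh11 stood at 0.037 and passed neither. The mean log2 signal of that list was 8.19 to 8.38 in ES and 9.32 to 9.39 in Pax7-GFP arrays, and its part in the signal of Kcnma1 was not tested. Des is shared with skeletal muscle.

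The 8 measured members of the calcium- and sodium-activated group had 2 higher, 0 lower and 6 not called, with a median of 0.0040. That is 25.0% called, against 14.5% of all genes. Kcnn2, the close relative of Kcnn3, stood at -0.40 (SE 0.093, limma adjusted p = 0.00871), and Kcnu1, the relative of Kcnma1 known from sperm, at -0.54 (SE 0.10, limma adjusted p = 0.00290), both short of 2-fold. With a floor of 4.5 on the log2 signal, Kcnu1 stood at -0.30 and did not pass (limma, adjusted p = 0.0640). Kcnt2, a sodium-activated channel, stood at 0.33 and passed the p threshold alone, but with that floor it stood at 0.12 and did not pass (limma, adjusted p = 0.347). It did not pass after centring or quantile normalization either, at 0.29 and 0.30. Kcnn1, Kcnn4 and Kcnt1 lay between -0.063 and 0.0045. Of the beta subunits that join Kcnma1 in the membrane, Kcnmb4 passed the p threshold alone on both of its probe sets, at 0.35 and 0.79, while Kcnmb1, Kcnmb2 and Kcnmb3 stood at -0.23, -0.045 and -0.036 and did not pass.

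Both falls were two-pore-domain potassium channels, which pass a background or leak current. Kcnk5 encodes a member that opens at alkaline external pH. It read 7.62, 7.82 and 7.62 on the ES arrays and 5.67, 5.64 and 5.73 on the Pax7-GFP arrays. The Pax7-GFP values lie close to one another, and all are far below the ES values. From 7.69 ± 0.12 in ES to 5.68 ± 0.044 in Pax7-GFP arrays (SD, n = 3 each) it fell by 2.01 on the log2 scale (SE 0.089), a 4.03-fold difference (limma, adjusted p = 7.01e-07).

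Kcnk1, the founding member of that family, read 7.81, 7.94 and 7.57 on the ES arrays and 6.56, 6.59 and 6.34 on the Pax7-GFP arrays. The groups were separate, and the log2 fold change was -1.27 (SE 0.12, limma adjusted p = 5.14e-05), with an interval of -1.547 to -1.002. Of 13 measured two-pore-domain genes 15.4% were called, close to the 14.5% of all genes. By direction 2 were lower, 0 higher and 11 not called, and the median was -0.0038. Among these 11, Kcnk12 and Kcnk13, close relatives that both encode halothane-inhibited channel subunits, lay on opposite sides of 0. Kcnk12 went from 6.81 ± 0.23 to 6.16 ± 0.090 and Kcnk13 from 6.07 ± 0.091 to 6.77 ± 0.18 (SD, n = 3 each). Their log2 fold changes were -0.65 (limma, adjusted p = 0.00286) and 0.70 (limma, adjusted p = 0.00109), and whether the 2 genes differ from each other was not tested. The other 9, among them Kcnk2, Kcnk4 and Kcnk10 of the mechanically gated branch, lay between -0.28 and 0.26 and passed neither threshold.

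**Figure D2:**
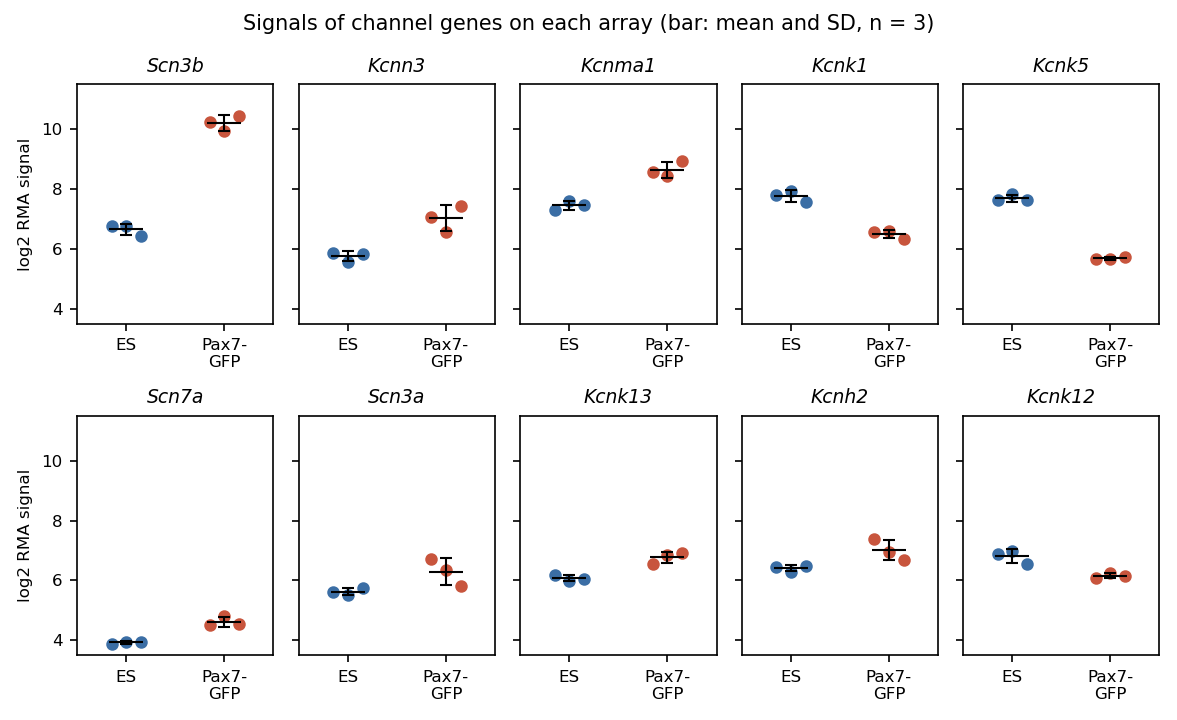
Log2 RMA signal (y axis) of 10 channel genes on each of the 3 ES arrays (blue) and 3 Pax7-GFP arrays (red), with the mean and SD in black. The top row holds the 5 called genes, with Scn3b near 10 on the Pax7-GFP arrays. The bottom row holds the 5 genes with the largest differences below 2-fold, all with an absolute log2 fold change between 0.61 and 0.70.

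The 5 calls each held when any 1 array was left out. Scn3b then stood between 3.43 and 3.69, Kcnn3 between 1.06 and 1.495, Kcnma1 between 1.04 and 1.29, Kcnk1 between -1.38 and -1.19 and Kcnk5 between -2.045 and -1.94. When limma tested for more than 2-fold, beyond the error, Scn3b and Kcnk5 were the channel genes called. This stricter test called 7.72% of all genes, 3.96% higher and 3.76% lower. In it the adjusted p was 0.255 for Kcnk1, 0.952 for Kcnn3 and 0.998 for the brighter probe set of Kcnma1, 17548705. The dimmer one, 17304012, was not in that test, which used the brightest probe set of each gene. On all arrays its log2 fold change of 2.64 had a limma interval of 2.296 to 2.983, wholly above 2-fold.

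RefSeq (GRCm38.p6) lists a 300-base window around the transcription start for 75 of the 97 channel genes, among them 4 of the 5 called genes, all but Scn3b. These 4 are shown so that the windows of Kcnma1 and Kcnn3, which rose, can be read beside those of Kcnk1 and Kcnk5, which fell. They are given 5′ to 3′ on the strand of the gene, with each CANNTG in capitals. CANNTG is the E-box, the core that myogenic and other basic helix-loop-helix factors bind, and it reads the same pattern on both strands. The windows are chr14:24004156-24004455 on the minus strand for Kcnma1, chr3:89519914-89520213 on the plus strand for Kcnn3, chr8:125994852-125995151 on the plus strand for Kcnk1 and chr14:20181733-20182032 on the minus strand for Kcnk5.
Kcnma1: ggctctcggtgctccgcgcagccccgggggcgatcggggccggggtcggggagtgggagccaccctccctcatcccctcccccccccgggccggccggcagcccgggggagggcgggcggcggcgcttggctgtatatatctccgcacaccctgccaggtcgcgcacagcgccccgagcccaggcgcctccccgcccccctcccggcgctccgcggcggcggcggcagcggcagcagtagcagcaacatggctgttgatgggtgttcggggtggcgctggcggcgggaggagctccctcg
Kcnn3: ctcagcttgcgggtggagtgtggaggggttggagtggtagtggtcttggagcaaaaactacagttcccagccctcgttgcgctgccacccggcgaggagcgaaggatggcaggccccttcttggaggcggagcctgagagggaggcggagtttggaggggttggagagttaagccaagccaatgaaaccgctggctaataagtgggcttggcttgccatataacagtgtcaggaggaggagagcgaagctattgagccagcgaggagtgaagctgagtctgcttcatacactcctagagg
Kcnk1: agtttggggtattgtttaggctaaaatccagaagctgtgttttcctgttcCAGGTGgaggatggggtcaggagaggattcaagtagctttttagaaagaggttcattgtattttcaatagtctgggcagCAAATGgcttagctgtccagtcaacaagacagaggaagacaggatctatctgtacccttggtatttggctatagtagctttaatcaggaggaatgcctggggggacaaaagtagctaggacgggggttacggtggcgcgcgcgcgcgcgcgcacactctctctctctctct
Kcnk5: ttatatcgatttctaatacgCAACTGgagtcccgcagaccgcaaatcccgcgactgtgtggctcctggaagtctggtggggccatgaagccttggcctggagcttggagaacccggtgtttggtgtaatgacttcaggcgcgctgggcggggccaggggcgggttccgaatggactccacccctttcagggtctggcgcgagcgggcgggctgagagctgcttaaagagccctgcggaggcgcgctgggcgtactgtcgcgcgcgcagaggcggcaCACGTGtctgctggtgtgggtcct

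The windows of Kcnma1 and Kcnn3 held 0 CANNTG, and those of Kcnk1 and Kcnk5 held 2 each. A match describes letters and not a bound site, and 72.3% of the 32851 windows of this length held at least 1, as did 72.5% of the 102 windows of channel genes. The narrower CAGCTG, which is 1 form of CANNTG, was in 0 of the 4 windows, in 16.3% of all windows and in 23.5% of those of channel genes. The Kcnma1 window was 78.0% G or C with 36 CG steps, the Kcnk5 window 63.7% with 26, the Kcnn3 window 57.7% with 11 and the Kcnk1 window 49.0% with 10. The median window was 57.7% G or C among channel genes and 52.7% among all.

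Below 2-fold, a further 21 channel genes passed the p threshold alone, 14 on the higher and 7 on the lower side, with absolute log2 fold changes from 0.29 to 0.70. Together with the 5 calls, 26 of the 97 or 26.8% passed the adjusted p, against 41.1% of all genes. On the higher side there were 17 and on the lower 9, against 19.7% and 21.4% of all genes. At an unadjusted p under 0.05 there were 32 channel genes, or 33.0%, against 47.0% of all genes, which is the background for the unadjusted counts of the subfamilies. In the 26 genes past the adjusted p the groups did not overlap. Over all 97 genes 36 had groups that did not overlap, or 37.1%, against 51.9% of all genes. The count depends on single arrays. It was 17 without ES replicate 2, 19 without ES replicate 3 and 22 to 26 without any other array. With each array left out in turn, 17 genes passed every time, the 5 called genes and 12 others.

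Those 12 with small differences were Kcnk13, Scn7a, Kcna3, Kcnc1, Kcnd3, Kcnab2 and Kcnq5 on the higher side and Kcnk12, Kcnu1, Kcnh3, Kcnip2 and Kcnn2 on the lower. The 9 that lost the p threshold without at least 1 array were Scn3a, Kcnh2, Kcnj8, Kcnmb4, Kcnt2, Kcnj14, Kcne4, Kcng3 and Scn8a. These fits used the brightest probe set of each gene alone, and the second one of Kcnmb4, at 0.79 on all arrays, was not among them. All 9 were among those that lost it without ES replicate 2. A fit with 5 arrays has less power than one with 6, and the part of this in the loss was not tested. With the signal floor 18 channel genes passed, and the 8 that did not were Scn7a and Kcnu1 of the first set and Scn3a, Scn8a, Kcnh2, Kcnt2, Kcne4 and Kcng3 of the second.

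**Figure D3:**
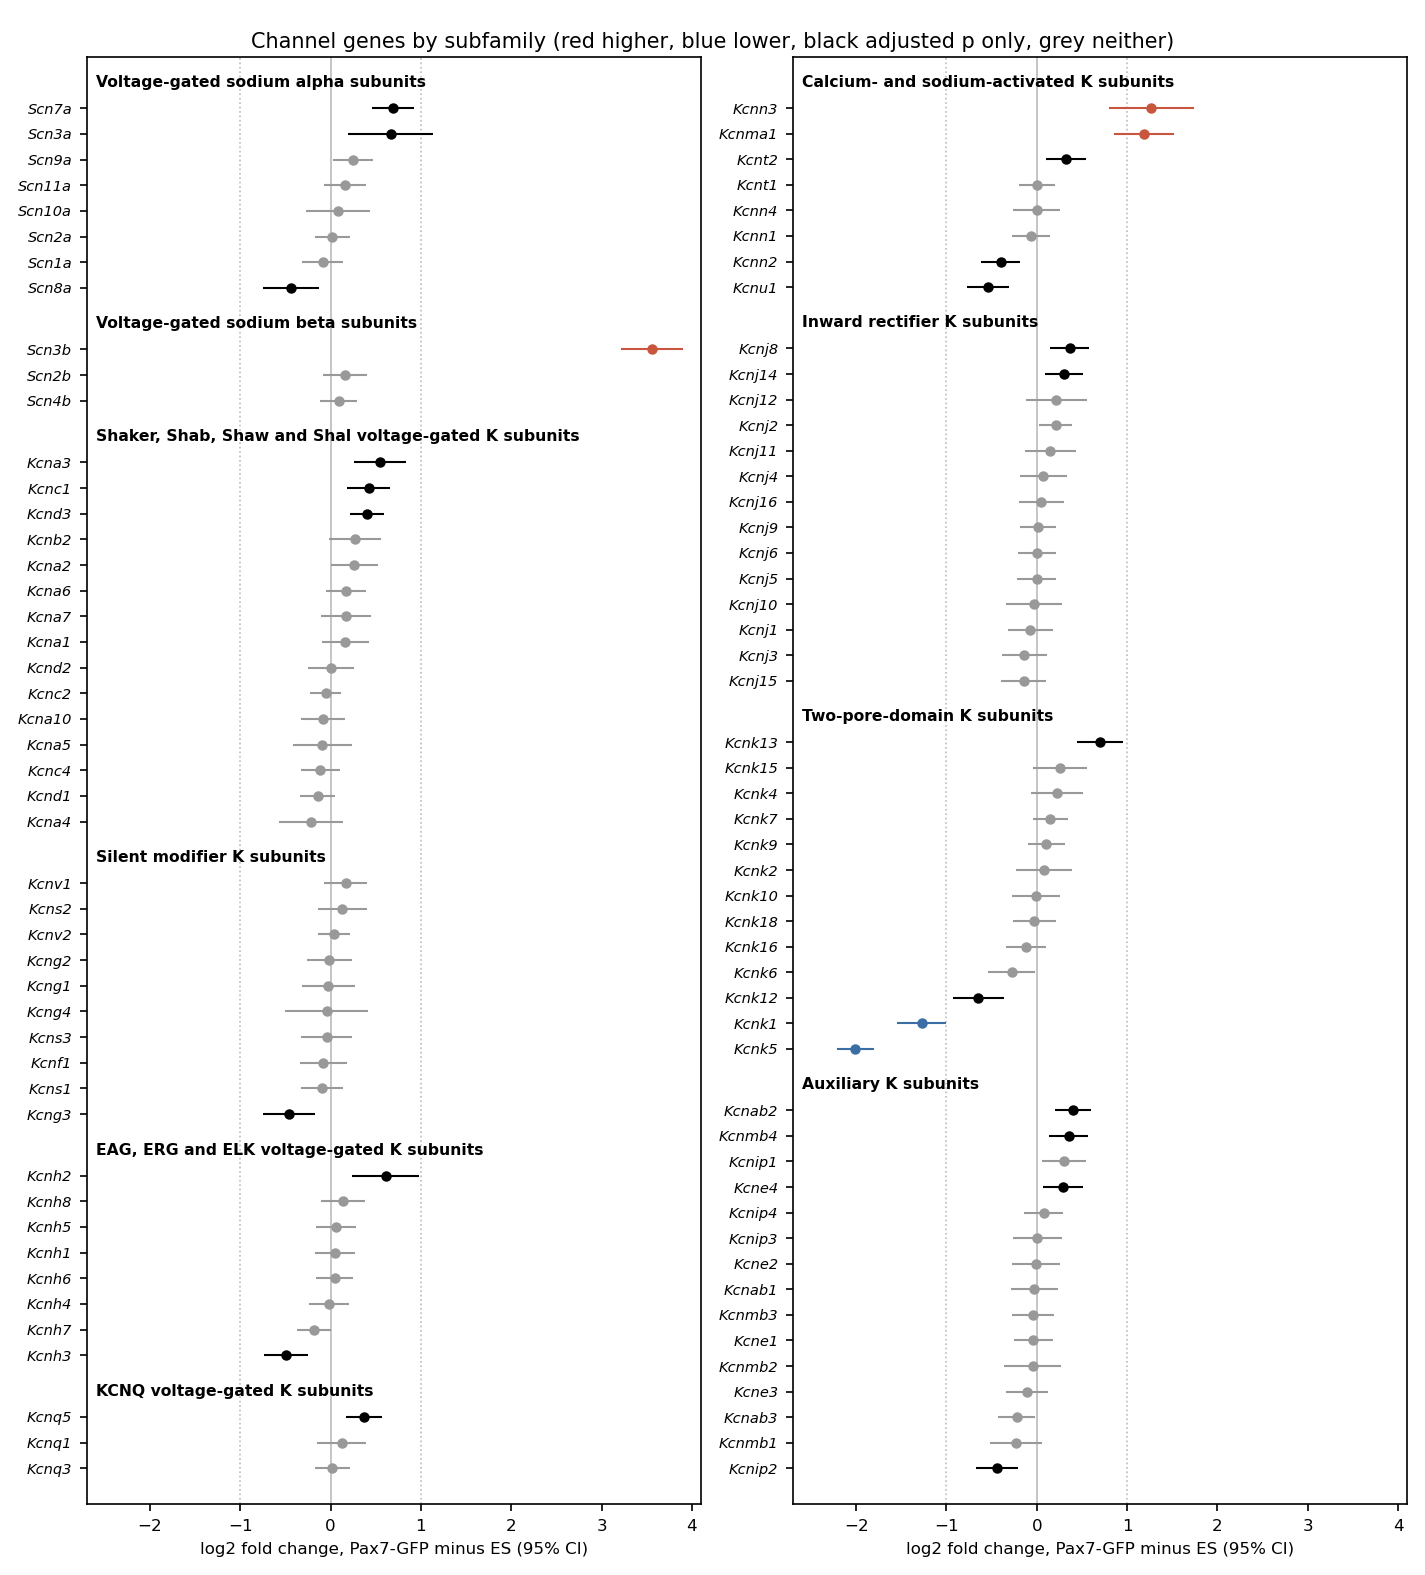
Log2 fold change of Pax7-GFP minus ES (x axis) with its 95% interval from limma for each of the 97 channel genes, grouped by subfamily. Red marks the 3 genes called higher, blue the 2 called lower, black the 21 past the adjusted p alone and grey the 71 past neither, and dotted lines stand at 2-fold. Nearly all intervals lie between the dotted lines, except those of the called genes and of Scn3a.

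Among the sodium channel alpha subunits, the pores that carry the current, 8 were measured, and 0 were called higher or lower. By limma 3 passed the p threshold alone, and 4 had an unadjusted p under 0.05. Of all genes 14.5% were called and 41.1% passed the adjusted p, the background for this and the later subfamily counts. Scn7a, which encodes an atypical member that senses extracellular sodium, read 3.88, 3.95 and 3.95 in ES and 4.51, 4.81 and 4.53 in Pax7-GFP arrays. The groups did not overlap, at low signals in both, and the log2 fold change was 0.69 (SE 0.10, limma adjusted p = 0.000646). With signals raised to a floor of 4.5 it stood at 0.12 and did not pass (limma, adjusted p = 0.409). Scn3a, the alpha subunit typical of embryonic neurons, read 5.597, 5.52 and 5.74 in ES against 6.72, 6.33 and 5.81 in Pax7-GFP arrays. Its lowest Pax7-GFP value lay just above the highest ES value, and its SD of 0.46 was the largest among the channel genes in that group. At 0.67 (SE 0.20, limma adjusted p = 0.0300) its interval ran from 0.20 to 1.14, and it did not pass without ES replicate 1, 2 or 3 or without Pax7-GFP replicate 2, with adjusted p up to 0.104. Scn8a, a main alpha subunit of mature neurons, stood at -0.43 (limma, adjusted p = 0.0320) and passed only with all arrays or without Pax7-GFP replicate 2. Scn1a, Scn2a, Scn9a, Scn10a and Scn11a stood between -0.085 and 0.25 and passed neither threshold. Without ES replicate 1, 2 or 3, 1 alpha subunit passed the p threshold, which was Scn7a.

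The voltage-gated potassium alpha subunits of the Shaker, Shab, Shaw and Shal families, which repolarise the membrane, had 0 of 15 called. By limma 3 passed the p threshold alone, all on the higher side, and 4 had an unadjusted p under 0.05. The 3 were Kcna3 at 0.54, Kcnc1 at 0.42 and Kcnd3 at 0.41. Kcna3, best known from lymphocytes, read 6.07, 5.92 and 6.10 in ES and 6.32, 6.62 and 6.78 in Pax7-GFP arrays, a small and non-overlapping difference. The other 12 lay between -0.21 and 0.27. Kcna4, an inactivating channel of heart and brain, had 2 probe sets. The brighter one read 8.32, 8.53 and 8.19 in ES and 8.23, 7.81 and 8.36 in Pax7-GFP arrays, and the groups overlapped. The other had means of 3.99 in ES and 4.04 in Pax7-GFP arrays, also with overlap, so the level of the gene differs widely by probe set.

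Subunits that pass no current alone and modify others, of the Kcnf, Kcng, Kcns and Kcnv families, had 0 of 10 called, a median of -0.034 and 1 member past the p threshold alone, with 1 also at an unadjusted p under 0.05. It was Kcng3 at -0.46 (limma, adjusted p = 0.0175), which did not pass without ES replicate 2 or 3 or without Pax7-GFP replicate 3. Of the 8 measured genes of the EAG, ERG and ELK families 0 were called by limma, and 2 passed the p threshold, the same number as at an unadjusted p under 0.05. Kcnh2, which encodes the ERG channel that repolarises heart muscle, read 6.44, 6.29 and 6.47 in ES and 7.38, 6.96 and 6.70 in Pax7-GFP arrays. It was higher on all 3 sorted arrays by unequal amounts, at 0.61 (SE 0.16, limma adjusted p = 0.0166), and did not pass without ES replicate 2 (adjusted p = 0.0699). Kcnh3, an ELK channel of the forebrain, stood at -0.49 (SE 0.10, limma adjusted p = 0.00525). Of 3 measured Kcnq genes 0 were called, and Kcnq5, which carries a slow voltage-gated current and is present in skeletal muscle, passed the p threshold alone at 0.37 (SE 0.086, limma adjusted p = 0.00837). Its second probe set stood at 0.096 and did not pass, and nor did the mean of both, at 0.23 (limma, adjusted p = 0.0583).

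Inward rectifiers hold the resting potential. Of 14 measured genes 0 were called by limma, all lay between -0.14 and 0.37, 2 passed the p threshold alone and 3 had an unadjusted p under 0.05. Kcnj8, a pore of channels closed by ATP, stood at 0.37 (SE 0.094, limma adjusted p = 0.0132), and it did not pass without ES replicate 2, at an adjusted p of 0.0607. Kcnj14 stood at 0.30 (SE 0.092, limma adjusted p = 0.0309) and passed only with all arrays or without Pax7-GFP replicate 1. Without ES replicate 2, 0 inward rectifiers passed, without Pax7-GFP replicate 1 there were 2, and without any other array there was 1.

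Auxiliary potassium channel subunits had 0 of 15 called by limma, with all values between -0.44 and 0.41, 4 past the p threshold alone and 6 at an unadjusted p under 0.05. Besides Kcnmb4, these were Kcnab2, a cytoplasmic beta subunit, at 0.41 (SE 0.087, limma adjusted p = 0.00564), Kcne4, an inhibitory single-pass subunit, at 0.29 (limma, adjusted p = 0.0427), and Kcnip2, a calcium sensor that joins Kcnd channels, at -0.44 (SE 0.10, limma adjusted p = 0.00820). Kcne4 did not pass without ES replicate 1, 2 or 3 or Pax7-GFP replicate 2 or 3. On its brighter probe set Kcnmb4 did not pass without ES replicate 2 or 3. With the mean of both probe sets, on all arrays, Kcnmb4 stood at 0.57 (limma, adjusted p = 0.00195). Without ES replicate 2 or ES replicate 3, 2 auxiliary subunits passed.

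Of 13 listed channel genes with known roles in myoblasts or muscle, 9 were measured, and 4 were not analysed here. Kcnn3 and Kcnma1 rose, Kcnq5 passed the p threshold alone, and the other 6 passed neither. Kcnj2, the inward rectifier known to drive the hyperpolarisation of myoblasts before fusion, read 4.32, 4.38 and 4.24 in ES and 4.51, 4.57 and 4.49 in Pax7-GFP arrays. The arrays of the sorted cells were all slightly higher, but the log2 fold change of 0.21 did not pass (SE 0.080, limma adjusted p = 0.0678, interval 0.027 to 0.39). With the signal floor it stood at 0.030. With a robust variance prior that follows the signal, Kcnj2 passed the p threshold alone, at 0.21 (limma, adjusted p = 0.0433). Kcnh1, an EAG channel that acts before myoblast fusion, read 5.23, 5.24 and 5.15 in ES and 5.11, 5.41 and 5.25 in Pax7-GFP arrays, with overlap and a log2 fold change of 0.050 (SE 0.098, interval -0.17 to 0.28). Kcnj12, a second inward rectifier of muscle, stood at 0.21 (interval -0.12 to 0.55). Kcnj11, the pore of ATP-closed channels in muscle and pancreas, stood at 0.15 (interval -0.13 to 0.44). Kcnc4 stood at -0.12 and Kcne3, its partner in muscle, at -0.11. The 6 had limma adjusted p-values from 0.0678 to 0.739.

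For the 92 genes without a call, the 95% interval shows how large a difference the signals allow. In 91 it lay wholly within 2-fold either way, and in 61 within 0.5 on the log2 scale. The exception was Scn3a. The median half-width of the interval was 0.24 and the widest, that of Scn3a, 0.47. These intervals describe the log2 signals on these arrays, and for genes near background they do not bound the change in molecules.

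Position in the genome was compared with the calls. In the RefSeq gene order of GRCm38.p6, 27 of the measured channel genes lay in 12 runs, with at most 1 other protein-coding gene between members of a run. Of these 27 genes Kcnk5 alone was called by limma, where 5.15% of the 97 channel genes and 14.5% of all genes were called. Whether calls depend on position was not tested. Kcnk5 lay beside Kcnk16, which encodes a pancreatic relative and stood at -0.12 against -2.01. In the run of Scn1a, Scn9a and Scn7a the values were -0.085, 0.25 and 0.69, and on the same chromosome Scn3a and Scn2a stood at 0.67 and 0.018. The run of Kcna3, Kcna2 and Kcna10 gave 0.54, 0.26 and -0.084, and that of Kcna5, Kcna1 and Kcna6 gave -0.091, 0.16 and 0.17. Whether neighbours differ from each other was not tested.

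Channel signals also varied with the array. Pax7-GFP replicate 2 was the highest of its group in 67 of the 97 channel genes, or 69.1%, against 36.5% of all genes and 51.5% of genes at or below the median of gene means. When each array was centred on its own median, replicate 2 was highest in 54 channel genes, or 55.7%, against 25.0% of all genes and 35.5% of the dimmer ones. ES replicate 2 was the lowest of its group in 56 channel genes, or 57.7%, against 30.8% of all genes and 42.8% of the dimmer ones. After centring it was lowest in 48, or 49.5%, against 23.6% and 33.9%. With centring the same 3 genes were higher and the same 2 lower, and 25 of the 97 passed the p threshold, 16 of them on the higher side. For the median channel gene the SD among ES arrays was 0.10 and that among Pax7-GFP arrays 0.14, and 0.084 and 0.14 for the median of all genes.

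Genes that work with these channels were described from 3 further lists, also chosen with earlier results of these data known. Of 25 measured partners and regulators 6 were higher, 2 lower and 17 not called, which is 32.0% called. Ank2 and Ank3, membrane scaffolds that anchor sodium channels, rose by 2.68 (SE 0.19) and 2.18 (SE 0.13), and Ank1, the erythroid and muscle ankyrin, by 1.31 (SE 0.094). With the mean of its probe sets Ank1 stood at 0.99, short of a call. Sgk1, a kinase that raises the surface level of several channels, fell by 1.87 (SE 0.20). Rest, a repressor of neuronal genes that include sodium channels, fell by 1.23 (SE 0.14), from 8.69, 8.84 and 8.80 on the ES arrays to 7.37, 7.88 and 7.38 on the Pax7-GFP arrays. These 5 had limma adjusted p-values between 3.88e-06 and 0.000187. Abcc9, the regulatory partner of Kcnj8 and Kcnj11, stood at 0.59 (SE 0.10, limma adjusted p = 0.00167), and was named after its values were seen. Without Pax7-GFP replicate 1, 5 members of this list were higher.

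Of 38 other channels of excitable cells 7 were higher, 3 lower and 28 not called, or 26.3% called. Ano5, a membrane protein linked to muscular dystrophy, rose by 3.59 (SE 0.23), Cacna1d, an L-type calcium channel pore, by 2.78 (SE 0.15) and Piezo2, a mechanically gated channel, by 2.34 (SE 0.11). Cacna1a, the pore of neuronal P/Q-type calcium channels, fell by 2.495 (SE 0.11), and Clcn3, a vesicular chloride-proton exchanger, by 1.65 (SE 0.098). Clcn2, a chloride channel, was called at -1.04 (SE 0.16), but stood at -0.997 and -0.90 without ES replicate 3 and without Pax7-GFP replicate 2, short of a call. The 6 had limma adjusted p-values between 7.25e-07 and 0.000960. Without single arrays this list had 6 to 8 higher and 2 or 3 lower members.

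In the list of the sodium-potassium pump and other cation transporters, 2 of 17 measured genes were higher, 3 lower and 12 not called, or 29.4% called. The pump restores the gradients on which both channel families depend. Fxyd1, its small regulator in heart and muscle, read 5.42, 4.82 and 5.16 in ES and 9.40, 9.17 and 8.60 in Pax7-GFP arrays. The groups lay far apart, and it rose by 3.92 (SE 0.22, limma adjusted p = 2.82e-06). Fxyd6, another member of that family, rose by 3.04 (SE 0.091). Atp1b1, a beta subunit of the pump, fell by 1.55 (SE 0.13), and Fxyd5 by 1.24 (SE 0.11). Slc12a7, a potassium-chloride cotransporter, was called at -1.02 (SE 0.18), but stood at -0.995 without ES replicate 2, at -0.84 without Pax7-GFP replicate 2 and at -0.997 after quantile normalization, short of a call. The last 4 had limma adjusted p-values between 8.91e-08 and 0.00172. The called shares of these lists stand beside 14.5% of all genes and 24.7% of genes above the median of gene means. Signal levels differed between the lists. The mean log2 signal per array was 5.47 to 5.67 for the channel genes, 6.36 to 6.75 for the partners, 5.81 to 6.24 for the other channels and 6.80 to 7.15 for the pump list. The part of signal level in these shares was not tested, nor were the differences between lists.

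**Figure D4:**
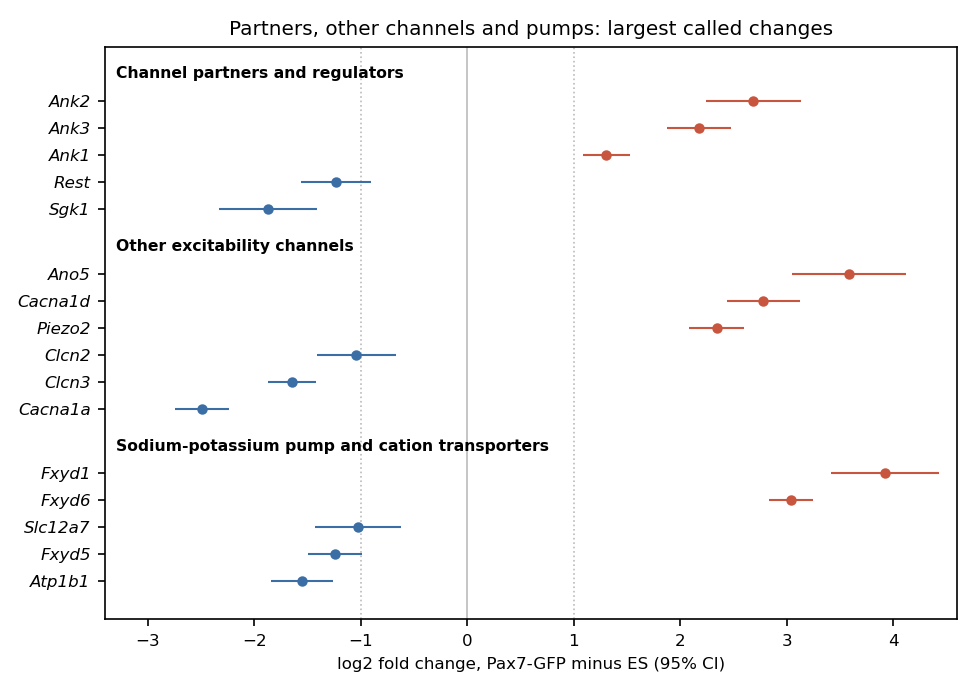
Log2 fold change of Pax7-GFP minus ES (x axis) with its 95% interval from limma for up to 3 of the largest called rises (red) and falls (blue) in each of 3 lists, with dotted lines at 2-fold. Fxyd1 at 3.92 and Ano5 at 3.59 lie farthest to the right, and Cacna1a at -2.495 farthest to the left.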

How the data were processed

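Deposited values were RMA (robust multi-array average) signals on the log2 scale, made by the authors in R 2.12.1, per the submitters' processing notes. Their range was 2.73 to 13.7 over 41345 rows on 6 arrays. For the probe set definition, the RMA options and the genome build: not given in the sources used here. Of the rows, 23521 carried 1 symbol in GEO's platform annotation of 2022, 1814 carried several and 16010 were unlisted. A gene was represented by its brightest probe set, by mean signal, among those with a single symbol, and 7 channel genes had several. Another 5 rows named a channel gene together with a second gene and were left out. No dim gene was removed.

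Groups and replicate numbers came from the titles, which call the replicates biological. How cultures were separated is not stated, so the p-values rest on the spread among these samples, which may be technical. Pax7-GFP was compared with ES with lmFit and eBayes of limma 3.58.1 (R 4.3.3), two-sided, over all 22180 genes. A fold change is the Pax7-GFP mean less the ES mean, and its standard error (SE) is moderated. The fit was tested on simulated data. The precision is limited by the number of arrays. Named genes were the called channel genes, the muscle genes listed, and up to 3 called rises and 3 called falls of each context list. All other genes given by name, those past the p threshold alone among them, were chosen after their values were seen. The members and lists were chosen with earlier results of these data known. Same-numbered arrays did not deviate together (correlations of -0.22 to 0.0069), so the numbers were not treated as pairs. Alternatives changed the scaling, signal floor, dim-gene filter, probe set rule, unit, thresholds, array weights, variance prior, arrays included and a replicate block.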

Additional observations from a re-analysis of the deposited data

How the results depend on the processing

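The 5 called channel genes kept their call and direction under every scaling, signal floor, filter, probe set rule, variance prior and array weighting tried, with the replicate block and without any 1 array; only the test against 2-fold called fewer. That test called 1713 genes, or 7.72%, with 1 channel gene higher and 1 lower, and 2 past its p threshold. With no minimum fold 9126 genes passed, and 17 channel genes were higher and 9 lower. Counts of channel genes past the adjusted p, added after seeing the data, were 9 of the 23 left when dim genes were left out, 18 with a signal floor (35.7% of all genes then passed), and 17 to 26 without single arrays. For the fits without dim genes or without single arrays, the share of all genes past the adjusted p is not given here. A lower count in them is therefore not read as particular to channel genes. With the replicate block 3213 genes were called, 3 channel genes were higher and 2 lower, and 24 passed the p threshold. By probe set, 4 were higher, since both of Kcnma1 counted. Signals near background limit the dim genes. Background correction could not be varied from these values.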

Other observations

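The 5 rows annotated to a channel gene and a second gene were not tested. Pax7-GFP minus ES means on the log2 scale were 0.305 and 0.034 for the 2 rows of Kcnk3 and Gm9899, 0.15 for Kcnmb4 with its antisense transcript, 0.11 for Scn9a with Gm13629 and 0.051 for Kcnj13 with Gigyf2. The probe cannot tell the genes of a pair apart.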
